A study of Drosophila melanogaster with 6 samples.

Results

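The genes described here encode the 3 large families of chemosensory receptors of the fruit fly Drosophila melanogaster: odorant receptors (Or genes), gustatory receptors (Gr genes) and ionotropic receptors (Ir genes). They were chosen by name, as every probe set with exactly 1 gene symbol that starts with Or, Gr or Ir and goes on with a number. This gave 185 probe sets for 165 genes, of 11981 genes named by a probe set of their own on the array. The 165 were 56 Or, 56 Gr and 53 Ir genes. For the 12 genes with several probe sets, the one with the highest mean over all arrays was taken. Another 7 receptor genes were measured only on probe sets that name a second gene, and 14 of the 186 genes with such names in the RefSeq gene table were not analysed here.

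Or genes encode odour-gated ion channels of olfactory neurons, in which a tuning receptor pairs with the shared co-receptor Orco. Gr genes encode related proteins that detect sugars, bitter compounds, carbon dioxide and some pheromones, mostly in taste neurons. Ir genes descend from synaptic glutamate receptors and serve smell, taste, temperature and humidity sensing, with Ir8a, Ir25a and Ir76b as co-receptors. These genes are known for their expression in larval and adult sensory neurons, cells that an embryo has not yet made before gastrulation.

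The arrays held total RNA of whole embryos collected 1 to 2 h after egg laying, with 1 Affymetrix Drosophila Genome 2 array per RNA sample. The mutant group was 3 samples of M- zld embryos, laid by mothers with zld germ-line clones, so that the eggs lacked the normal maternal supply of Zelda, a zinc finger transcription factor that opens early chromatin. The other group was 3 samples of yw embryos, which the labels call wild type. The mutant lesion and the mothers' full genotype are not given in the sources used here, and a portion of the embryos stained for DNA lay in nuclear cycles 8 to 13 for 90% of its members. The zld signal was 263.1, 195.7 and 214.9 on the mutant arrays and 1023, 1062 and 966.8 on the wild-type arrays. The groups did not overlap, and the difference of -2.11 in log2 units passed the test (SE 0.114, adjusted p = 1.92e-04, limma). The sample protocol speaks of duplicate collections and the series text of 3, so the p-values measure the spread between these samples, which may be partly technical. In RNA of whole embryos, fewer cells of a type and less RNA per cell cannot be told apart.

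Most receptor genes had signals within the range of control probe sets for bacterial transcripts. Their median still lay above that of the controls on every array, at 9 to 12.2 against 2 to 5.4. On the assumption that no Bacillus RNA was added, the background was read from 27 probe sets for Bacillus genes, which flies lack. Their 162 values over the 6 arrays had a median of 3.4, a 95th percentile of 18.1 and a highest value of 27.3. A receptor gene was counted as above background in a group when all 3 of its arrays exceeded 18.1. In mutant embryos 17 of the 165 genes did so (10.3%), and in wild-type embryos 22 (13.3%). Among the other 11816 named genes the shares were 55.0% and 56.8%. No array exceeded the level for 97 receptor genes (58.8%), against 26.8% of the other named genes. Another 53 receptor genes exceeded it on some but not all of the 6 arrays. A signal under the level does not show that a transcript was absent, only that it could not be told from background on these arrays.

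The mean signals of the 165 genes over 6 arrays ran from 0.733 for Ir47a, named after its value was seen, to 62.2 for Gr22a. The mean was under 5 for 41 genes, from 5 to 10 for 38 and from 10 to the level for 55. It lay between the level and 27.3 for 16 genes, between 27.3 and 50 for 13 and above 50 for 2, Gr22a and Or43a. Only Gr22a, Or43a, Gr64f and Gr59e exceeded the highest control value, 27.3, on each of the 6 arrays.

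**Figure D1:**
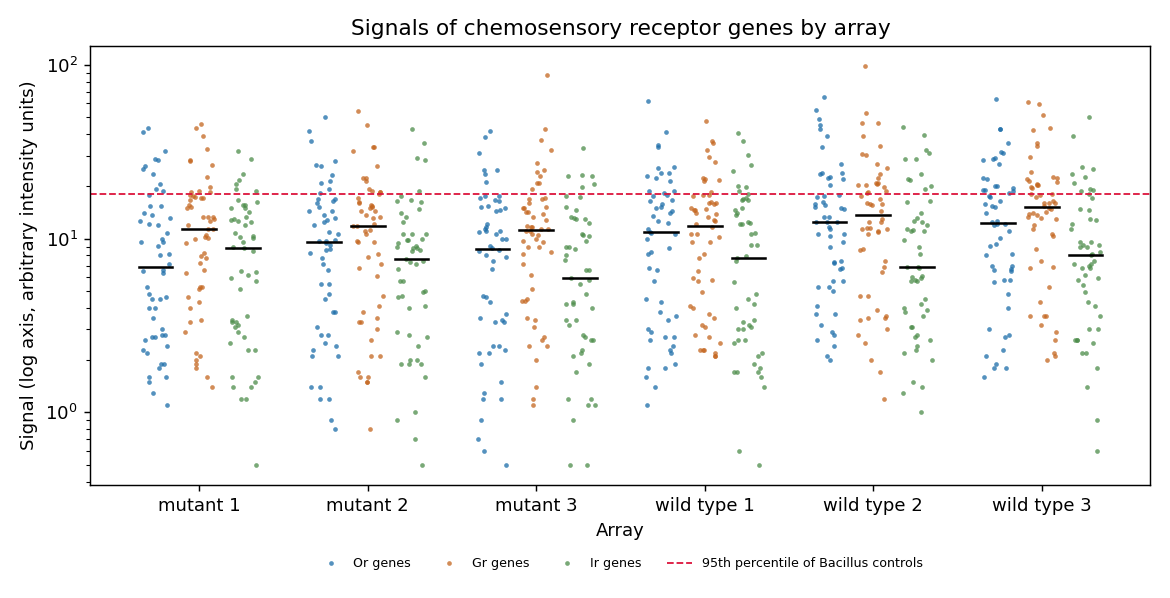
Signals of the 165 receptor genes on each of the 6 arrays (log axis, intensity units), coloured by family, with a black mark for each family's median and the background level of 18.1 as a dashed line. Most points lie under that line on every array, and the medians over all families are 9.4, 9.4 and 9 in mutant and 10.7, 11.3 and 12.2 in wild-type embryos.

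The number of receptor genes above the level varied between arrays of 1 group. It was 30, 29 and 24 on the mutant arrays and 33, 47 and 48 on the wild-type arrays. The control probe sets shifted as well: the 95th percentile of their signals was 14.1, 13.0 and 16.4 on the mutant arrays and 24.0, 25.0 and 15.9 on the wild-type arrays. With each array read against its own controls, 49, 58 and 34 receptor genes passed on the mutant arrays and 17, 24 and 61 on the wild-type arrays. The count over all 3 arrays was then 23 in mutant and 12 in wild-type embryos, so the order of the groups turned with the choice of level. With the level kept at 18.1 and only the other 2 arrays required to pass, the wild-type count was 36 without replicate 1, 26 without replicate 2 and 27 without replicate 3. With the level also read again from the remaining 5 arrays, it was 45 without replicate 1 (level 16.1) and 36 without replicate 2 (level 16.5).

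**Figure D2:**
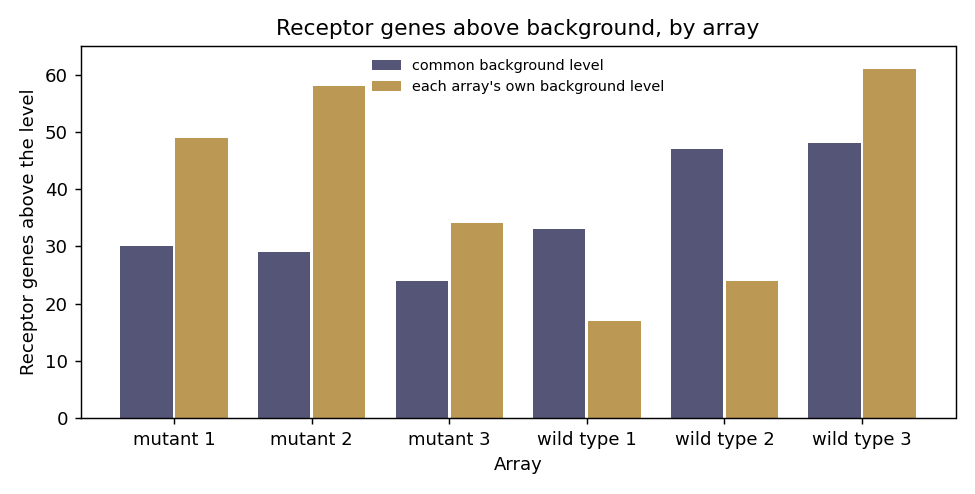
Number of the 165 receptor genes above the common background level and above the level of each array's own control probe sets, for the 3 mutant and 3 wild-type arrays. Against the common level the wild-type arrays count 33 to 48 and the mutant arrays 24 to 30, while against their own levels wild-type replicates 1 and 2 count 17 and 24.

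The level was exceeded on all 6 arrays by 15 receptor genes (9.09%, against 52.6% of the other named genes). They were 6 Or, 7 Gr and 2 Ir genes. Their signals were low in absolute terms, between 18.3 and 98.7 on any array.

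Among the Or genes, Or43a, which encodes an antennal odorant receptor, had signals of 41.2, 50.3 and 41.6 on the mutant arrays and 61.6, 65.3 and 63.5 on the wild-type arrays. Each mutant array lay below each wild-type array, but the difference did not pass the test (log2 fold change -0.40, SE 0.156, adjusted p = 0.274, limma). Or43b, another antennal receptor, had 43.2, 41.4 and 38.5 in mutant and 18.3, 55.3 and 42.9 in wild-type embryos. The wild-type values of Or43b spanned a wider range than the mutant ones and enclosed them. Or65c had 28.2, 26.1 and 24.7 in mutant and 41.2, 39 and 31.4 in wild-type embryos, without overlap and without passing the test (adjusted p = 0.439, limma). The other Or genes above the level on all arrays were Or94a, Or74a and Or59c, a receptor of the maxillary palp, with means over 6 arrays of 33.9, 29.9 and 28.9. For these genes the arrays of both groups overlapped.

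Among the Gr genes, Gr22a had 45.4, 54.5 and 86.9 in mutant and 36.5, 98.7 and 51.3 in wild-type embryos. Mutant replicate 3 and wild-type replicate 2 stood high and the groups overlapped, with means of 62.3 ± 21.8 and 62.2 ± 32.5 (SD, n = 3 each). Gr64f, a co-receptor of sugar taste neurons, had 43.5, 45.3 and 42.5 in mutant and 47.3, 53 and 61.3 in wild-type embryos. These groups did not overlap, and the log2 fold change of -0.22 (SE 0.165) did not pass the test (adjusted p = 0.565, limma). Gr32a, a receptor for bitter compounds and a male pheromone, had 22.7, 21.5 and 20.9 in mutant and 27.6, 30.1 and 29.4 in wild-type embryos, again without overlap and without a call (adjusted p = 0.519, limma). Gr59e, Gr77a, Gr28a and Gr85a had means over 6 arrays of 39.2, 37.4, 30.4 and 29.8, with overlapping groups.

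Among the Ir genes, Ir68a, needed for sensing moist air, had 23.7, 35.3 and 23.1 in mutant and 40.7, 43.9 and 22.6 in wild-type embryos. Ir68b had 21.8, 42.7 and 19.9 in mutant and 36.4, 39.4 and 38.9 in wild-type embryos. A single array set the overlap in each case: wild-type replicate 3 for Ir68a and mutant replicate 2 for Ir68b. Ir64a, an acid receptor of the antenna, exceeded the level on all 3 mutant arrays with 32.1, 28.3 and 33.4, and on 2 of the wild-type arrays, which read 16.6, 32.4 and 49.9. Or59b was the other gene above the level on the mutant arrays and not on all wild-type arrays, because wild-type replicate 3 read 12.1. The reverse held for 7 genes, Or33c, Or85b, Or92a, Gr57a, Gr22f, Ir76a and Ir94a, of which Or85b was named after its values were seen.

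**Figure D3:**
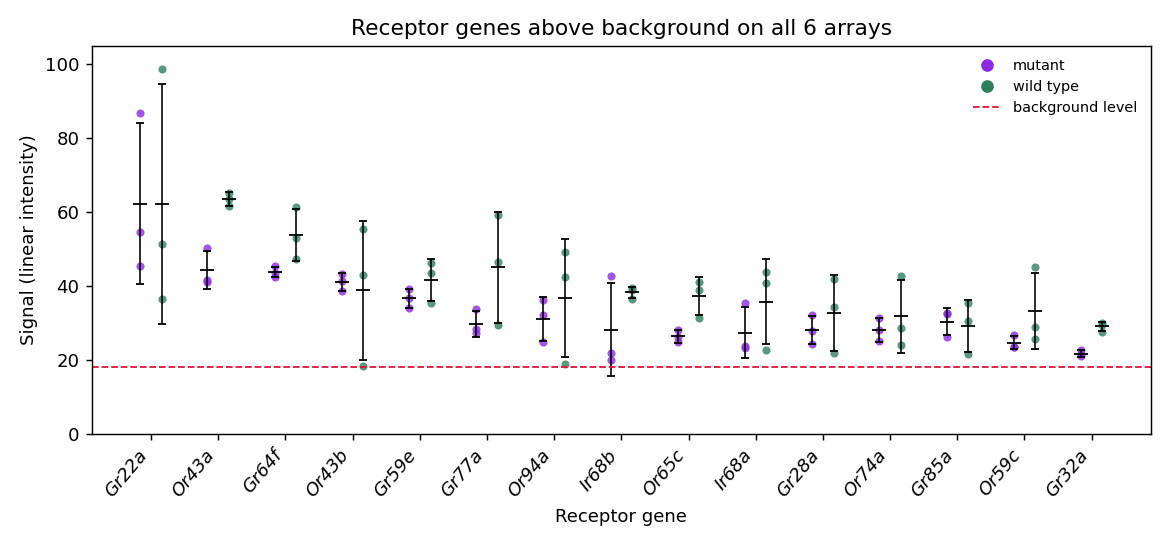
Signals (linear intensity) of the 15 receptor genes above the background level on all 6 arrays, with a point per array, a horizontal mark with error bars for each group mean ± SD (n = 3) and the level of 18.1 as a line. Mutant and wild-type points overlap for 11 genes and separate for Or43a, Gr64f, Or65c and Gr32a, with mutant arrays lower.

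The co-receptors, on which whole families depend, were near or under the level. Orco, whose symbol lacks a number and which is therefore not counted among the 165, had 19.7, 13.4 and 13.8 in mutant and 14.7, 11.3 and 19.3 in wild-type embryos. Ir8a, the co-receptor for acid-sensing Ir proteins, had 15.6, 29.3 and 20.6 in mutant and 14.6, 28.8 and 23.5 in wild-type embryos, above the level on 2 arrays of each group. No array stood out for its genotype in either gene. Ir25a, the most widely used Ir co-receptor, had 19.3, 9.9 and 5.8 in mutant and 14.1, 12.6 and 14.8 in wild-type embryos. Ir76b, a co-receptor for amines, salt and amino acids, stayed under the level on every array, at 14.2, 5.7 and 2.8 in mutant and 16.6, 3.1 and 4.9 in wild-type embryos. The groups overlapped for each of the 4, with adjusted p-values from 0.769 to 0.980 (limma).

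The well-studied odorant receptors stayed under the level. Or42b, an attraction receptor for vinegar, Or47b, a receptor for fly odours in courtship, Or56a, the geosmin receptor, and Or67d, the receptor for the male pheromone cVA, lay under the level on every array, with means of 7.8, 2.77, 2.3 and 6.13. Or22a, a receptor for fruit esters, also lay under it throughout, with 4, 10.9 and 9.1 in mutant and 15.2, 14.9 and 15.5 in wild-type embryos. Those groups did not overlap, but all 6 values were at background.

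Most of the well-studied taste receptors exceeded the level on some but not all arrays. Gr5a, a trehalose receptor, had 17.6, 18.7 and 11.3 in mutant and 8.2, 15.8 and 6.9 in wild-type embryos, with 1 array above the level. Gr43a, a fructose sensor of the brain and gut as well as the mouthparts, had 18.6, 18.5 and 13.8 in mutant and 17.9, 19.7 and 24.3 in wild-type embryos, so 2 arrays of each group exceeded the level. Gr64a, a sugar receptor, and Gr28b, linked to warmth and light sensing, each exceeded it on 3 arrays, with means of 18.4 and 18.7. Gr66a, a bitter receptor needed for tasting caffeine, had 13.4, 17.1 and 11 in mutant and 22.3, 27 and 17.8 in wild-type embryos, without overlap and without a call (adjusted p = 0.387, limma). Gr33a, another bitter and pheromone receptor, had a mean of 2.13. The partners of the carbon dioxide receptor differed: Gr63a was at 3 to 5.3 on every array, while Gr21a had 4.6, 13.7 and 8.4 in mutant and 16, 22.3 and 15.1 in wild-type embryos. For Gr21a 1 of 6 arrays exceeded the level and the difference did not pass the test (adjusted p = 0.289, limma).

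The following well-studied Ir genes stayed under the level. Ir21a, needed for cool sensing, Ir40a, needed for sensing dry air, and Ir93a, a co-receptor for both, had means of 10.8, 10.03 and 4.97. Ir75a, an acetic acid receptor, and Ir84a, a receptor for food odours that promotes courtship, had means of 3.42 and 1.75. None of these 5 genes exceeded the level on any array.

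Each family held a few genes above background. In mutant and wild-type embryos these were 7 and 9 of 56 for Or, 7 and 9 of 56 for Gr, and 3 and 4 of 53 for Ir genes. No array exceeded the level for 32 Or, 29 Gr and 36 Ir genes. The difference between families was not tested. By chromosome arm, the mutant and wild-type counts were 3 and 5 of 31 genes on 2L, 5 and 5 of 45 on 2R, 7 and 7 of 28 on 3L, and 2 and 5 of 40 on 3R. None of the 21 genes on X exceeded the level on all arrays of a group. The arm was not tested either, and genes of 1 cluster are neighbours.

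Some receptor genes lie within or beside genes with far higher signals. Of the 31 receptor genes with a mean above the level, 11 overlap another gene in the RefSeq gene table (35.5%), against 34 of the other 134 (25.4%). The overlapped gene was above the level on all 6 arrays for 6 of the 31 (19.4%) and 11 of the 134 (8.21%). Gr64f overlaps CG11593, whose mean signals were 733 (mutant) and 689 (wild type). Or43b overlaps Cul1, which encodes a scaffold of ubiquitin ligases, with means of 1662 and 1363. Gr32a overlaps CG6230, with 304 and 399, and Ir76a overlaps CG14102, with 116 and 83.9. Or59b and Or59c both overlap CG43795, which had lower means of 24.5 and 36.1, near those of the receptors. Probe positions and strand were not used here, so signal of the receptor and of the overlapping transcript could not be told apart for these genes. A flanking gene above the level on all 6 arrays was found for 16 of the 31 (51.6%) and 46 of the 134 (34.3%). Receptor genes were not left out of that count: for Or59b, Or65b and Gr28b only Or59c, Or65c and Gr28a met it. Some of the other flanking genes were as dim as the receptors, such as DIP-delta beside Ir64a, at 21.7 to 40.1. The 2 shares therefore do not compare receptors beside strongly expressed genes with the rest.

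Of these neighbours, 2 were called, where 0.778% of all probe sets were called lower and 0.863% higher (limma). Whether neighbours of receptor genes were called more often than other probe sets was not tested, so the 2 calls are a description only. Beside Gr22a, CG31933 had 4.9, 3.8 and 5.1 in mutant and 21.2, 22.8 and 15.4 in wild-type embryos and fell (adjusted p = 0.0333, limma), while Gr22a had a log2 fold change of 0.05 (adjusted p = 0.96). Beside Or43a, Adk3, which encodes an adenylate kinase, had 24.1, 25.5 and 30.7 in mutant and 4.3, 3.9 and 6.8 in wild-type embryos and rose (adjusted p = 0.0178, limma), while Or43a was lower on the mutant arrays without passing. The mutant values of CG31933, with its wild-type replicate 3, and the wild-type values of Adk3 lay under the level. The size of both differences therefore depends on the pseudocount. With the replicate number as a block in the fit, both neighbour calls were lost (adjusted p = 0.0926 for CG31933 and 0.0585 for Adk3, limma). They were also lost when 1 array was left out. For CG31933 that held for each array but wild-type replicate 3, with adjusted p up to 0.173. For Adk3 it held for every mutant array and wild-type replicate 2, with adjusted p up to 0.0795.

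The comparison of mutant with wild-type embryos asked whether loss of maternal Zelda went with other levels of these transcripts. No receptor gene was called in either direction: 0 of 165 were lower and 0 higher at an adjusted p under 0.05 (limma), where 0.778% of all 18769 probe sets were called lower and 0.863% higher. These shares stand for 146 and 162 probe sets, or 127 and 552 under median centring. The test named in the study's methods called 0 lower and 2 higher of all 18769 probe sets after adjustment, so its 0 calls among the receptor genes say little about them. Before adjustment, limma and that test each counted 15 lower and 2 higher receptor genes with p under 0.05, where limma counted 8.67% and 6.69% of all probe sets. This balance turned with the scaling: it was 4 lower and 8 higher under quantile normalization and 1 lower and 14 higher under median centring, where 18.1% of all probe sets were higher. Of the 15 on the authors' scale, 11 had no array above the background level.

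The balance of the receptor genes lay slightly below 0 on the authors' scale and turned above 0 under median centring. The median log2 fold change of the 165 was -0.10, beside -0.05 for all probe sets, and 127 of them (77.0%) lay below 0, beside 61.9%. The medians were -0.14 for Or, -0.07 for Gr and -0.08 for Ir genes. Under median centring the median of the receptor genes turned to 0.06 and that of all probe sets to 0.11, and under quantile normalization they were -0.02 and -0.00469. The number of receptor genes below 0 was then 61 (37.0%, beside 30.5% of all probe sets) under median centring and 88 (53.3%, beside 51.4%) under quantile normalization. The Bacillus controls moved the same way as the receptor genes, with a median difference of -0.12 and 24 of 27 below 0. The part of the controls' shift in the receptor genes' shift was not tested.

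All 3 mutant arrays lay below all 3 wild-type arrays for 27 receptor genes (16.4%), where 13.6% of all probe sets did. They lay above them for 3 (1.82%), where 8.11% did. These counts are given on the authors' scale only, on which 7 of the Bacillus controls separated below and 0 above. Of the 27 receptor genes, 13 had no array above the level and 4 had all 6 above it. Those 4 were named with the plot of the genes above background on all arrays. The 3 in the other direction were Gr39a, Ir31a and Gr10b, the last named after its values were seen.

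**Figure D4:**
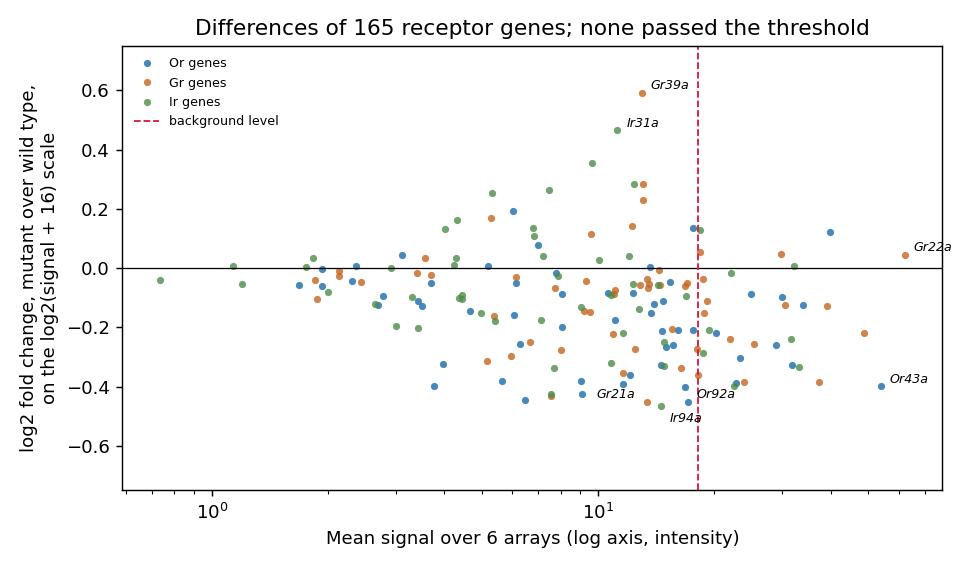
Fitted log2 fold change of mutant over wild-type embryos, on the log2(signal + 16) scale, against the mean signal over 6 arrays (log axis) for the 165 receptor genes, coloured by family, with the background level of 18.1 marked. Values run from -0.46 for Ir94a to 0.59 for Gr39a, none passed the threshold, and Gr39a, Ir31a, Ir94a, Or92a and Gr21a lie under the level.

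The genes at the ends of the distribution had means over 6 arrays under the level, although some of their arrays exceeded it. Ir94a had 8.5, 9.8 and 10.7 in mutant and 19.9, 19.4 and 18.9 in wild-type embryos. These values differed by more than their spread, with a log2 fold change of -0.46 (SE 0.141), without passing the test (adjusted p = 0.166, limma). It passed without the trend in the variance estimate (adjusted p = 0.0493). Or92a, the receptor for diacetyl, had 3.5, 23.2 and 11 in mutant and 22.4, 22.6 and 19.6 in wild-type embryos, and mutant replicate 2 alone brought the groups into overlap.

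Gr39a, a taste receptor gene with several alternative first exons that is linked to courtship, had 19.8, 22.4 and 14.2 in mutant and 4, 8.6 and 8.7 in wild-type embryos. The wild-type arrays were all at background, and the log2 fold change of 0.59 (SE 0.163) did not pass the test (adjusted p = 0.135, limma) except under median centring (adjusted p = 0.0369). Its 5 probe sets disagreed, with log2 fold changes of 0.59, 0.39, 0.14, 0.03 and -0.29. Gr39a also overlaps 1 gene that was above the level on all 6 arrays, and their signals could not be told apart here. Ir31a had 16.6, 16.6 and 13.3 in mutant and 3.4, 8.2 and 9.2 in wild-type embryos, and Ir56a 6.5, 14.9 and 17.4 against 5.6, 5.9 and 7.4. All values of Ir31a and Ir56a lay under the level, so no fold is given for them.

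With 3 arrays in each group, the precision of these comparisons was limited. The standard error of the log2 fold change over the 165 genes had a median of 0.163 and ran from 0.0416 for Ir47a to 0.315 for Gr22a. The 95% limits of the fitted differences lay within -1.04 and 0.97 for every receptor gene. These limits hold on the log2(signal + 16) scale, which damps dim signals: with a pseudocount of 1 they widened to -2.83 and 2.28. Leaving out wild-type replicate 1 led to a call of Or85e (adjusted p = 0.0417, limma), and leaving out wild-type replicate 3 to calls of Or22b (adjusted p = 0.0459) and Or49a (adjusted p = 0.0267). All 3 were lower on the mutant arrays. These genes were named after their values were seen, and since all their signals lay under the level on every array, no fold is given.

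Genes that work alongside the receptors were mostly at background too. Of 65 measured accessory genes, mainly odorant-binding proteins, 0 were called in either direction (limma; 4 lower and 0 higher with p under 0.05 before adjustment), with a median log2 fold change of -0.08, and 44 exceeded the level on no array. Obp99a, an odorant-binding protein also made outside sense organs, had 20.7, 47.5 and 39.4 in mutant and 76.5, 258.9 and 91 in wild-type embryos. Its groups did not overlap, and its log2 fold change of -1.47 did not pass the test (adjusted p = 0.137, limma). Of 12 synaptic glutamate receptor genes, the relatives of the Ir genes, 0 were called (1 lower at an unadjusted p under 0.05), the median was -0.08, and 3 exceeded the level on all mutant and 5 on all wild-type arrays. GluRIB had 34, 34.8 and 38 in mutant and 24.3, 42.9 and 33.4 in wild-type embryos, which overlapped. Only 1 of 7 rhodopsin genes was measured on a probe set of its own, Rh7, with 24.1, 9 and 20.8 against 35.5, 41.4 and 29.5 and no call (adjusted p = 0.263, limma).

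Transcription factor genes of the sensory lineages were the only list of the 7 with a call. Of 10 genes, 2 fell and 0 rose, where 0.778% of all probe sets fell and 0.863% rose. Before adjustment, 3 were lower and 1 higher with p under 0.05 (limma), and the median log2 fold change was -0.01. The list was chosen with earlier results of these data known, so its share of calls is a description only. The proneural gene amos, which founds most olfactory sensilla, had 21.1, 11.7 and 17.5 in mutant and 199.1, 357.8 and 305 in wild-type embryos. It fell by 3.18 on the log2 scale (SE 0.223, adjusted p = 4.79e-04, limma), to a mutant mean of 16.8 ± 4.74 (SD, n = 3) that lies under the level, so the size of the fall depends on the pseudocount. The proneural gene ato, which founds chordotonal organs, photoreceptors and the remaining olfactory sensilla, had 27.5, 32.4 and 25.7 in mutant and 75.7, 109.1 and 109.5 in wild-type embryos. It fell by 1.35 on the log2 scale (SE 0.185, adjusted p = 0.0131, limma), a call that was lost without mutant replicate 1 (adjusted p = 0.0616) or mutant replicate 3 (adjusted p = 0.0883). The other 8 genes did not pass. Among them acj6 and pdm3, POU factors that select receptors in olfactory neurons, lay under the level on every array, and onecut had 15.9, 19.1 and 22.2 in mutant against 4.7, 14.3 and 5.3 in wild-type embryos (adjusted p = 0.209).

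**Figure D5:**
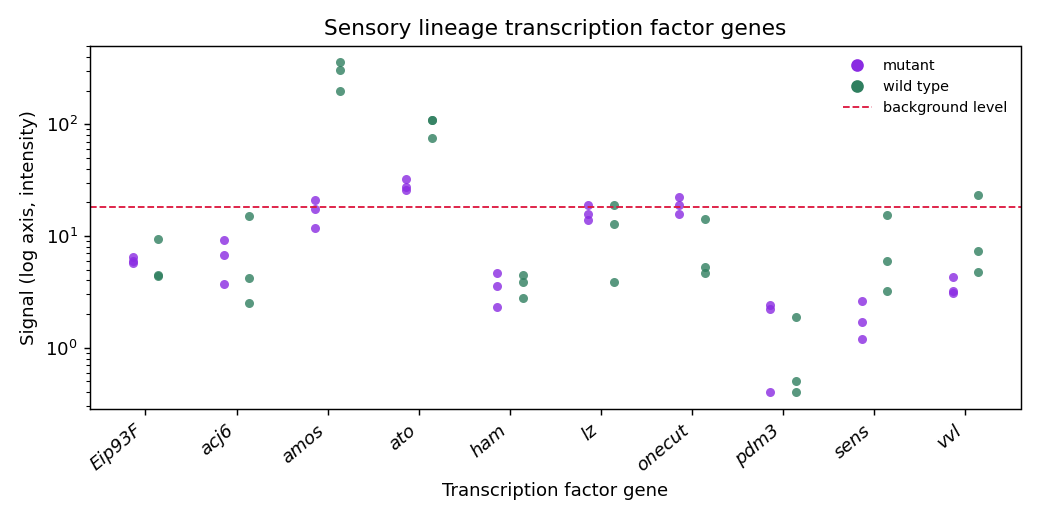
Signals (log axis, intensity) of the 10 sensory lineage transcription factor genes on the 3 mutant and 3 wild-type arrays, with a point per array and the background level of 18.1 as a line. For amos and ato the wild-type arrays, at 75.7 to 357.8, stand above the mutant arrays, at 11.7 to 32.4, while most other genes lie near or under the line.

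Among the lists of markers of other cells, the one for muscle and matrix differed most between the wild-type arrays. Of 11 neuron markers 0 were called (limma; 2 lower and 1 higher with p under 0.05 before adjustment), the median log2 fold change was -0.13, and their summed signals were 139.8, 95.4 and 115 in mutant and 127.6, 168.1 and 113 in wild-type embryos. Rdl, a GABA receptor subunit, had 21, 18.7 and 27.1 in mutant and 29.4, 16.6 and 18.3 in wild-type embryos, which overlapped. Muscle and matrix markers of older embryos, 9 genes with 0 called (6 lower at an unadjusted p under 0.05) and a median of -0.86, summed to 98.2, 78.9 and 102.4 in mutant and 385.6, 596.5 and 118.4 in wild-type embryos. Mlc1, a myosin light chain, was at 121.9 and 149.3 on wild-type replicates 1 and 2 and at 34.1 on replicate 3, against 22.7, 17.6 and 23.9 in mutant embryos. Without wild-type replicates 1 and 2 together, the median of the receptor genes was -0.15 and 0 of them were called, where 43 lower and 51 higher calls were made among all probe sets. With a single wild-type array in that fit, its spread comes from the mutant arrays alone. The part of these markers in the receptor values was not tested. Chorion and yolk protein genes of mothers, 10 genes with 0 called at either threshold and a median of -0.02, summed to between 102.3 and 177.9 on each array, and Vm26Aa was at 30.4 to 41.8 on every array. No gene of these 3 lists was listed at 0.

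Receptor genes that share a probe set with another gene were read separately and not counted. The probe set of Or19a and Or19b had a mean of 15.9 over the mutant arrays and 15.4 over the wild-type arrays. One for Gr64b and Gr64c had 16.2, 18 and 14.3 in mutant and 20.7, 21.9 and 20.7 in wild-type embryos, without overlap and without a call (adjusted p = 0.581, limma). A second for the same pair and the one for Gr64d and Gr64e lay under 5 on every array. The probe set of Ir75d, which also names COX6AL2, had means of 33.1 and 29.7 and overlapping groups.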

How the data were processed

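Total RNA of 3 M- zld and 3 yw embryo samples was measured on 6 Affymetrix arrays. Per the labels' protocols, scans were processed and normalized by the authors with the GeneChip Operating Software, and neither its version nor the scaling target is known here. Each array's deposited file column holds linear intensity signals without detection calls. Of 18952 signals per array, 183 belonged to control probe sets, which were left out of the test. The other 18769 held 13646 probe sets with 1 gene symbol in the platform annotation, 402 with several and 4721 unnamed here. All 165 receptor genes were found in the RefSeq gene table (assembly GCF_000001215.4), which was used for names and gene order only.

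Signals were tested as log2(signal + 16) with limma 3.58.1 in R 4.3.3 (group as the only term, moderated variances that follow the mean signal), with Benjamini-Hochberg adjustment over all 18769 probe sets and calls at an adjusted p under 0.05. The test was checked on simulated data, with changes added only to probe sets at or above the median signal. That check did not cover changes in dimmer probe sets, among which most receptor genes lie. Fold changes are mutant over wild type on that scale and understate changes of dim transcripts. Background counts and medians are descriptions with no test. Alternatives were other pseudocounts, a filter on dim probe sets, other scalings, no variance trend, the methods' t-test, a replicate block, array weights, other probe set choices, other background levels and each array left out. Leaving out wild-type replicates 1 and 2 together, the TrpnX controls, and single arrays with the level kept, was added after seeing the data. Python 3.11.15 with pandas 2.3.3 made the tables, and matplotlib 3.10.9 the figures.

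The receptor genes, the 7 other lists and the naming rule were chosen with earlier results of these data known. Named were called receptors, up to 30 with a mean above the level, co-receptors and well-studied receptors, the 3 largest and 3 lowest fold changes, called genes and the gene of highest signal in each other list, gene neighbours and zld. Other names were chosen after their values were seen and are marked so.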

Additional observations from a re-analysis of the deposited data

How the results depend on the processing

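Each count of called receptor genes was 0 in either direction under every alternative run, with these exceptions. Median centring called 1 higher, Gr39a, and eBayes without trend 1 lower, Ir94a. Leaving out 1 array gave 0 to 2 lower and 0 higher. The median log2 fold change of the receptor genes, -0.10, became -0.33 with a pseudocount of 1, -0.0331 with 64, -0.22 with dim probe sets left out (26 receptor genes remained in the fit), -0.0153 under quantile normalization, 0.0598 under median centring and -0.15 without wild-type replicates 1 and 2 together, and ran from -0.149 to -0.0810 with 1 array left out. Median centring shifts every fold change by the same amount, and the sign of 18 of 52 named receptors turned with it, against 13 under quantile normalization. The 17 receptor genes above background in mutant embryos became 6 against the highest control signal, 23 against each array's own level and 26 by the group mean, and ran from 17 to 19 with 1 array left out. The 22 in wild-type embryos became 8, 12 and 39, and ran from 17 to 45. With the level of all arrays kept, leaving out 1 array of the group gave 17 to 21 in mutant and 26 to 36 in wild-type embryos. Over all probe sets, the 146 lower and 162 higher calls became 264 and 327 with dim probe sets left out, 127 and 552 under median centring, 0 and 2 by the methods' t-test, and 43 and 51 without wild-type replicates 1 and 2 together. They ran from 45 to 213 and from 35 to 227 with 1 array left out. With the replicate block, 76 were lower and 75 higher, and 0 receptor genes were called (lowest adjusted p = 0.136, limma). Whether the replicate numbers pair the samples is not known here. The deviations of same-numbered arrays from their group means correlated at 0.147, -0.00154 and -0.0349. Low correlations cannot show that samples were handled apart. The t-test also left zld, amos, ato, CG31933 and Adk3 without a call. The causes of these changes were not tested. Signals near the control level limit every statement on a receptor gene.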
